A study of Homo sapiens with 6 samples.

Results

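The 10 genes described here, DDIT3, ATF3, ATF5, TRIB3, CHAC1, SESN2, GDF15, STC2, DDIT4 and NUPR1, are stress-induced effectors that act downstream of the transcription factor ATF4, chosen by name as known members of that response. The choice was made with earlier results of these data known, so numbers of called members beside the shares of all genes are descriptive only. All 10 were found among the 20263 genes of the deposited table. RNA sequencing was carried out on total RNA of cells given in the labels as LNCaP, an established line of hormone-dependent human prostate cancer. The control group was 3 libraries from cells carrying an empty vector, and the other group was 3 libraries from cells carrying a LINC01518 overexpression vector, LINC01518 being a long non-coding RNA. In the series' design text the insert is MEG3, a different long non-coding RNA, while title and sample labels give LINC01518, and the groups follow the sample labels. Levels of LINC01518 and MEG3 were not analysed here, which leaves the overexpression itself unchecked. No source used here gives the promoter of the vector, the time after transfection or the number of clones. Nor do the labels state that replicates were separate cultures, and p-values therefore reflect only the scatter among these libraries, possibly just technical.

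ATF4 is the central transcription factor of the integrated stress response. Kinases that sense amino acid shortage, unfolded protein in the endoplasmic reticulum, haem shortage or double-stranded RNA phosphorylate the translation factor eIF2, which slows protein synthesis in general but favours translation of the ATF4 mRNA. ATF4 protein then pairs with other basic leucine zipper factors and induces genes of amino acid supply, further transcription factors such as CHOP, brakes on the growth kinase complex mTORC1, and secreted hormones such as GDF15. Its own mRNA level is therefore only a partial guide to its activity.

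Libraries held 38161544 to 42553688 counts, and 13543 genes had enough counts to be tested with edgeR, all 10 members among them. Levels within a gene are given as CPM, counts scaled to library size by the TMM method, and levels between genes as the deposited TPM, which are scaled to transcript length. A gene is called when its edgeR p-value, adjusted by the Benjamini-Hochberg method over all 13543 genes, is under 0.05, and each log2 fold change is overexpression minus empty vector. Of 16 luminal prostate markers, 6 (KLK3, KLK2, KLK4, TMPRSS2, FOLH1 and TRPM8) had 0 counts in all libraries, which goes against the LNCaP label, while the keratin gene KRT8 lay at 1300 to 1723 CPM. Of markers of other cell types, 5 of 10 fibroblast, 4 of 8 immune and 1 of 5 endothelial genes were at or under 3 counts in every library, LUM, PDGFRA, PTPRC, CD3E and KDR at 0. The summed level of the fibroblast list was 112 to 122 CPM with empty vector and 154 to 159 CPM with overexpression. Of this, COL1A1 made up 80.1 to 86.6 and 113.3 to 115.9 CPM, and PDGFRB 27.7 to 30.8 and 35.1 to 38.4 CPM. The immune list summed to 35.7 to 37.4 and 22.7 to 27.01 CPM, of which the single gene CD68 made up 32.6 to 34.3 and 20.03 to 23.4 CPM. The endothelial list summed to 8.42 to 8.85 and 7.34 to 9.67 CPM, of which CDH5 made up 8.02 to 8.29 and 6.79 to 8.79 CPM. In these lists COL1A1 and PDGFRB were called higher with overexpression (edgeR adjusted p = 0.00452 and 0.0471) and CD68 lower (0.00722). On the deposited TPM, PDGFRB had means of 16.3 with empty vector and 15.7 with overexpression, the other direction. Any part of other cell types in the results below was not tested.

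Of the 10 effectors, 4 fell with overexpression and 0 rose. DDIT3, the gene of the transcription factor CHOP, had the largest change, a fall of 55.0%. The hormone genes GDF15 and STC2 and the mTORC1 brake gene SESN2 fell by 39.4%, 31.7% and 27.4%. The other 6 members, ATF3, ATF5, TRIB3, CHAC1, DDIT4 and NUPR1, were not called. Among all tested genes 2.03% were called lower and 3.57% higher, 5.6% in all (275 lower and 484 higher). Without TMM scaling the split was 382 lower and 346 higher, and limma on the deposited TPM gave 119 (0.879%) and 100 (0.738%), with 4 members lower and 0 higher. At an unadjusted edgeR p under 0.05, 6 members were lower and 1 higher, beside 11.4% of all tested genes lower, 23.6% in either direction. DESeq2 called 5 members lower and 0 higher, beside 4.35% and 6.41% of all genes. In bulk RNA, fewer cells of a type and less RNA per cell cannot be told apart. The members had a median log2 fold change of -0.51, against -0.0035 for all tested genes. Of their 10 values 8 were negative, as were 6879 of those of all 13543 tested genes. The libraries of the groups did not overlap for 7 of the 10, with overexpression lower for 6 of these, whereas among all tested genes 31.4% did not overlap and 15.5% did so with overexpression lower.

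**Figure D1:**
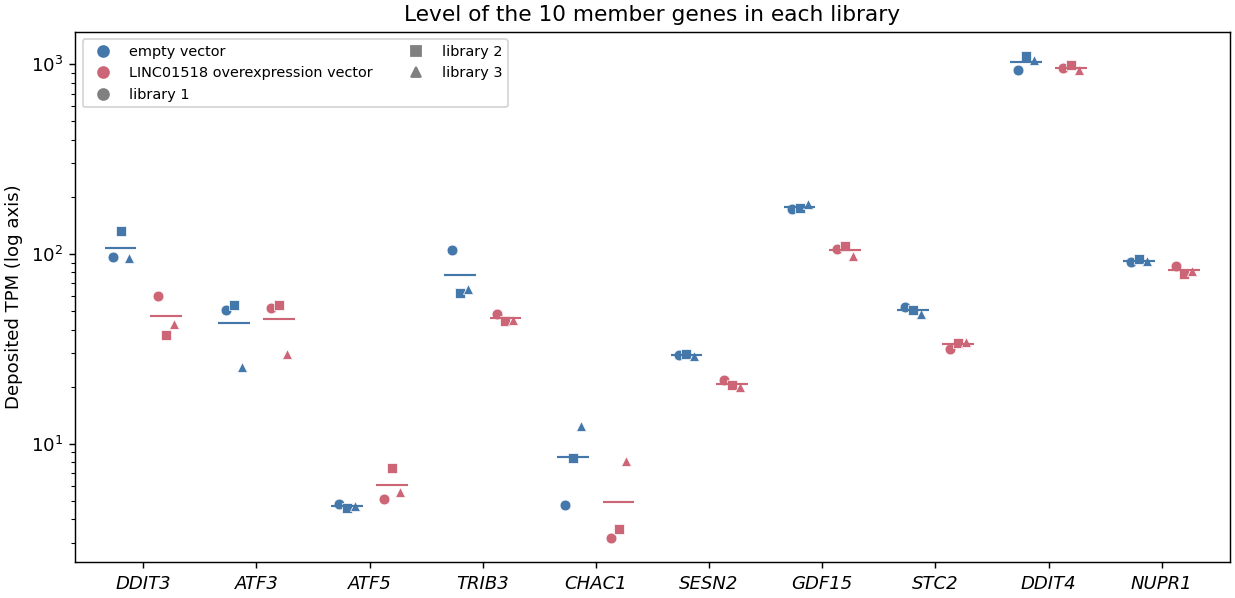
Deposited TPM (log axis) of the 10 member genes in each library, blue for empty vector and red for the LINC01518 overexpression vector, with the mean of each group as a line. DDIT4 stands above all others at 929 to 1101 TPM, CHAC1 and ATF5 lie lowest, and the groups of SESN2, GDF15 and STC2 are narrow and apart.

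The members spanned a wide range of levels. With empty vector, mean TPM ran from DDIT4 (1031) through GDF15 (177), DDIT3 (108), NUPR1 (92.1), TRIB3 (77.7), STC2 (50.5), ATF3 (43.5), SESN2 (29.3) and CHAC1 (8.51) to ATF5 (4.69). Of the neighbours in that order, NUPR1 and TRIB3, STC2 and ATF3, ATF3 and SESN2, and CHAC1 and ATF5 overlapped between libraries. DDIT3 (94.7 to 132.7 TPM) lay just above NUPR1 (90.3 to 94.5 TPM) with empty vector. With overexpression DDIT3 stood at a mean of 46.8 TPM and NUPR1 at 82.2 TPM, and the order of this pair was turned in every library. DDIT3, TRIB3 and ATF3 then had nearly the same mean level, 46.8, 45.7 and 45.2 TPM.

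Among the transcription factors, DDIT3 encodes CHOP, a partner of C/EBP factors that is strongly induced by ATF4 and linked to cell death under lasting stress. Its level was 43.3, 60.4 and 44.6 CPM in the empty vector libraries and 28.6, 17.3 and 20.8 CPM in the overexpression libraries. Every overexpression library lay below every control, but both groups were wide, with library 2 the highest of the controls and library 1 the highest of the others. The log2 fold change was -1.15 (SE 0.228, 95% interval -1.72 to -0.59, edgeR adjusted p = 0.049). The call was kept without overexpression replicate 1 (adjusted p = 0.034) and lost without any of the other 5 libraries (0.095 to 0.163), with log2 fold changes between -1.38 and -0.98. DDIT3 (chromosome 12, 57516588 to 57521737, minus strand, GRCh38, GENCODE 29) shares 355 exonic bases with MARS1 and 58 with MBD6, both on the opposite strand. It also shares 105 with an annotated protein-coding gene on its own strand that is not in the deposited table. The strand setting of the counting is not given in the sources used here, so reads from these stretches cannot be told apart. For the gene on the same strand, the strand of a read would not separate them either. MARS1, a tRNA synthetase gene, had 157, 161 and 186 CPM with empty vector and 157, 124 and 164 CPM with overexpression (edgeR 95% interval of the log2 fold change -0.47 to 0.11). MBD6, a methyl-binding domain gene, had an interval of -0.48 to 0.04. Both intervals are for whole genes, and the part of shared reads in the DDIT3 value was not tested.

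By the fixed rule, the 3 genes outside the set whose centred log2 CPM profile over the 6 libraries lay closest to that of DDIT3 were ZNF518A, GPATCH2L and KAT14. Their root mean square differences from DDIT3 were 0.211, 0.266 and 0.284 log2 units, over 11815 genes compared. ZNF518A, a zinc finger gene, lay at 14.7 to 15.8 CPM with empty vector and at 9.74, 5.31 and 5.32 CPM with overexpression. Like DDIT3, all 3 genes were highest in library 1 of the overexpression group and lower in libraries 2 and 3 of it. None of the 3 was called (edgeR adjusted p = 0.0525, 0.175 and 0.0807). None belongs to the lists of the ATF4 pathway used here.

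ATF3, an early stress factor that binds the same kind of site as ATF4, had 48.2, 50.2 and 21.9 CPM with empty vector and 51.3, 53.6 and 28.5 CPM with overexpression. The library numbered 3 stood far below the other 2 in both groups, and the groups overlapped. The log2 fold change was 0.15 with a 95% interval of -0.96 to 1.25 (edgeR adjusted p = 0.871), a fold of 0.515 to 2.38. Its sign turned without empty vector replicate 3 (-0.15) and without overexpression replicate 2 (-0.01).

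ATF5, a close relative of ATF4 that is itself translated under stress, was the member with the highest log2 fold change, 0.41 (SE 0.124, 95% interval 0.12 to 0.70, edgeR adjusted p = 0.0981). It lay at 3.69, 3.78 and 4.001 CPM with empty vector and 4.67, 5.69 and 4.87 CPM with overexpression. The groups did not overlap, yet the change did not pass the test. ATF5 (chromosome 19, 49928702 to 49933935) shares 626 exonic bases with NUP62, a nuclear pore gene on the opposite strand that had 4339 to 5222 counts per library against 151 to 224 for ATF5. NUP62 had 111 to 115 CPM with empty vector and 124 to 130 CPM with overexpression (95% interval of the log2 fold change 0.07 to 0.28), the same direction as ATF5. The part of shared reads in the ATF5 value was not tested.

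TRIB3 encodes a pseudokinase that is induced by ATF4 and CHOP and restrains ATF4 in return. It had 128, 76.4 and 83.5 CPM with empty vector and 61.8, 55.2 and 56.9 CPM with overexpression. All controls were above all overexpression libraries, and library 1 of the controls stood apart from the other 2. The log2 fold change was -0.73 (SE 0.211, 95% interval -1.26 to -0.20, edgeR adjusted p = 0.119). Without empty vector replicate 1 the change was smaller, at -0.47, and was called (adjusted p = 0.0308). DESeq2 also called it, with all 6 libraries (-0.73, adjusted p = 5.72e-04). TRIB3 was not called without any of the other libraries (edgeR adjusted p = 0.101 to 0.285). Of the 10 alternative fits that kept all libraries, DESeq2 was the only 1 to call it.

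CHAC1, which encodes an enzyme that degrades glutathione, was low and the most scattered member. It had 4.05, 6.35 and 7.98 CPM with empty vector and 2.57, 2.82 and 6.99 CPM with overexpression, resting on 108 to 309 counts. In both groups the library numbered 3 was the highest, the reverse of ATF3, and overexpression library 3 lay above 2 of the 3 controls. The log2 fold change of -0.57 (95% interval -1.77 to 0.63, edgeR adjusted p = 0.528) could not be told from 0.

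The promoter windows of these genes were searched for the composite element of ATF4 and C/EBP factors, TGATGNAA, on both strands of the 250 bases before the RefSeq start (GRCh38.p14). Of the 10 members 9 had an entry, NUPR1 had none, and 2 of the 9 held the element, ATF3 in one of its windows and CHAC1. Among all genes with a window 3.89% held it. The windows of ATF3 and CHAC1, which were not called, are shown for the element they hold, and those of DDIT3 and GDF15, which fell, for comparison. Capitals mark the element, and each sequence reads 5′ to 3′ on the strand of its gene. In CHAC1 (chr15:40953221-40953470, plus strand) it lay 209 to 202 bases before the start on the opposite strand, and in ATF3 (chr1:212565157-212565406, plus strand) 191 to 184 bases before it. The windows of DDIT3 (chr12:57520515-57520764, minus strand) and GDF15 (chr19:18385908-18386157, plus strand) are given in lower case throughout.
CHAC1: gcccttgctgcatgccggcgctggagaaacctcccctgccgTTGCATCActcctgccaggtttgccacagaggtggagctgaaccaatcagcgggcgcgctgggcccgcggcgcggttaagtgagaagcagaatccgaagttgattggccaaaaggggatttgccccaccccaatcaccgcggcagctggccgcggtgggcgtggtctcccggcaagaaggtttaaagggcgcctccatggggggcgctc
ATF3: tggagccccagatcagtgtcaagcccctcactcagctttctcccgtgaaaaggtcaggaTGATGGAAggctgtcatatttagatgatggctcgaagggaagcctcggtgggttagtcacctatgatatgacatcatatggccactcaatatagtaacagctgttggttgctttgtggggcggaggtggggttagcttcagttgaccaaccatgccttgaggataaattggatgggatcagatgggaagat
DDIT3: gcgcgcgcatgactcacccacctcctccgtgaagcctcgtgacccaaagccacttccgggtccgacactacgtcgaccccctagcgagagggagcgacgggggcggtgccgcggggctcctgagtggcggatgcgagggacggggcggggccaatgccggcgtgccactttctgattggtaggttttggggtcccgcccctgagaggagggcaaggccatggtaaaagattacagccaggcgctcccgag
GDF15: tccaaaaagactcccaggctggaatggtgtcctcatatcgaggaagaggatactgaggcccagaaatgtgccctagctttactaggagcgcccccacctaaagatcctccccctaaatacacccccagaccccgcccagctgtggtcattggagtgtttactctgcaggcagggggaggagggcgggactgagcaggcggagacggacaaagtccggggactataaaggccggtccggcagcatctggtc
A match is a stretch of letters, not a shown binding site, and the absence of one says only that these letters are not in this window.

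SESN2 and DDIT4 encode brakes on mTORC1, the kinase complex that drives protein synthesis. SESN2, sestrin 2, a leucine sensor induced by both ATF4 and p53, had 49.7, 51.3 and 51.4 CPM with empty vector and 39.0, 36.1 and 35.5 CPM with overexpression. Both groups were tight and apart, with means of 50.8 ± 0.947 and 36.9 ± 1.87 CPM (SD, n = 3 each). The log2 fold change was -0.46 (SE 0.061, 95% interval -0.60 to -0.32, edgeR adjusted p = 0.0095), and the call held in 6 of 6 fits without 1 library (adjusted p = 0.0229 to 0.0461). DDIT4, also named REDD1, which acts through the TSC complex and also responds to hypoxia and glucocorticoids, had 804, 965 and 952 CPM with empty vector and 866, 894 and 845 CPM with overexpression. The groups overlapped, and the 95% interval of -0.23 to 0.10 (edgeR adjusted p = 0.642) reached from slightly below to slightly above 0. Its exons share 847 bases with an antisense gene that was not analysed here. Of these brakes, only SESN2 was called, and its interval lay wholly below that of DDIT4. That difference was not itself tested.

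NUPR1, a small stress-induced chromatin factor, had 123.6, 136.6 and 134.4 CPM with empty vector and 123.4, 112.0 and 116.1 CPM with overexpression. The lowest control and the highest overexpression library were almost equal. The log2 fold change was -0.17 (SE 0.059, 95% interval -0.30 to -0.03, edgeR adjusted p = 0.139), and it was not called in any of the alternative fits (adjusted p = 0.0822 to 0.315).

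GDF15 and STC2 encode secreted hormones. GDF15, a distant TGF-beta relative that curbs appetite through a receptor in the hindbrain and is used as a marker of cell stress, had 102, 105 and 113 CPM with empty vector and 66.1, 68.0 and 60.5 CPM with overexpression. No overexpression library came near the lowest control. Means were 106.9 ± 5.78 and 64.8 ± 3.89 CPM (SD, n = 3 each), a log2 fold change of -0.72 (SE 0.064, 95% interval -0.87 to -0.57, edgeR adjusted p = 0.00258). STC2, stanniocalcin 2, a glycoprotein that inhibits the protease PAPP-A, had 129.8, 125.4 and 124.8 CPM with empty vector and 83.3, 86.9 and 89.3 CPM with overexpression. It was the tightest member, with a log2 fold change of -0.55 (SE 0.048, 95% interval -0.66 to -0.44, edgeR adjusted p = 0.00258). Both were called in 6 of 6 fits without 1 library, GDF15 with adjusted p of 0.00762 to 0.0135 and STC2 with 0.00826 to 0.0131. GDF15 lies on chromosome 19 (18374731 to 18389176) and STC2 on chromosome 5 (173314713 to 173329503, minus strand), and neither shares exonic bases with another gene of the annotation.

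**Figure D2:**
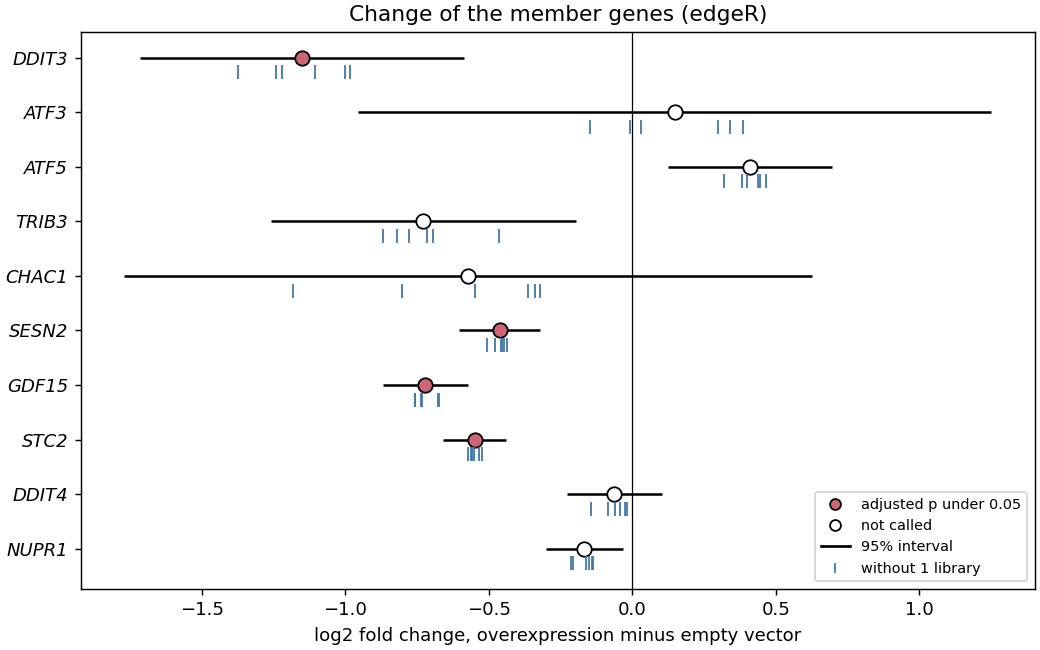
Log2 fold change of each member gene (horizontal axis, overexpression minus empty vector) with its 95% interval, filled where called, and blue ticks for the 6 fits without 1 library. SESN2, GDF15 and STC2 have narrow intervals below 0, DDIT3 a lower but wider one (-1.72 to -0.59), and ATF3, CHAC1 and DDIT4 intervals that cross 0.

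The members also differed in their scatter between libraries. The SD of log2 CPM within groups was 0.66 for CHAC1, 0.60 for ATF3, 0.32 for DDIT3 and 0.29 for TRIB3. Among all tested genes these were at percentiles 97, 96.3, 87.2 and 85. STC2 (0.042), SESN2 (0.054), NUPR1 (0.074) and GDF15 (0.083) were at percentiles 7.49, 15.3, 29.5 and 35.5. ATF5 (0.114) and DDIT4 (0.108) were near the middle. The library furthest from its group mean was empty vector replicate 3 for ATF3 (-0.78), overexpression replicate 1 for DDIT3 (0.39), empty vector replicate 1 for TRIB3 (0.46) and overexpression replicate 3 for CHAC1 (0.91, all in log2 CPM). In both groups replicate 3 was the lowest for ATF3 and the highest for CHAC1. The closest pairs of profiles were DDIT4 with NUPR1 (root mean square difference 0.088 log2 units), SESN2 with STC2 (0.089) and GDF15 with STC2 (0.128).

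**Figure D3:**
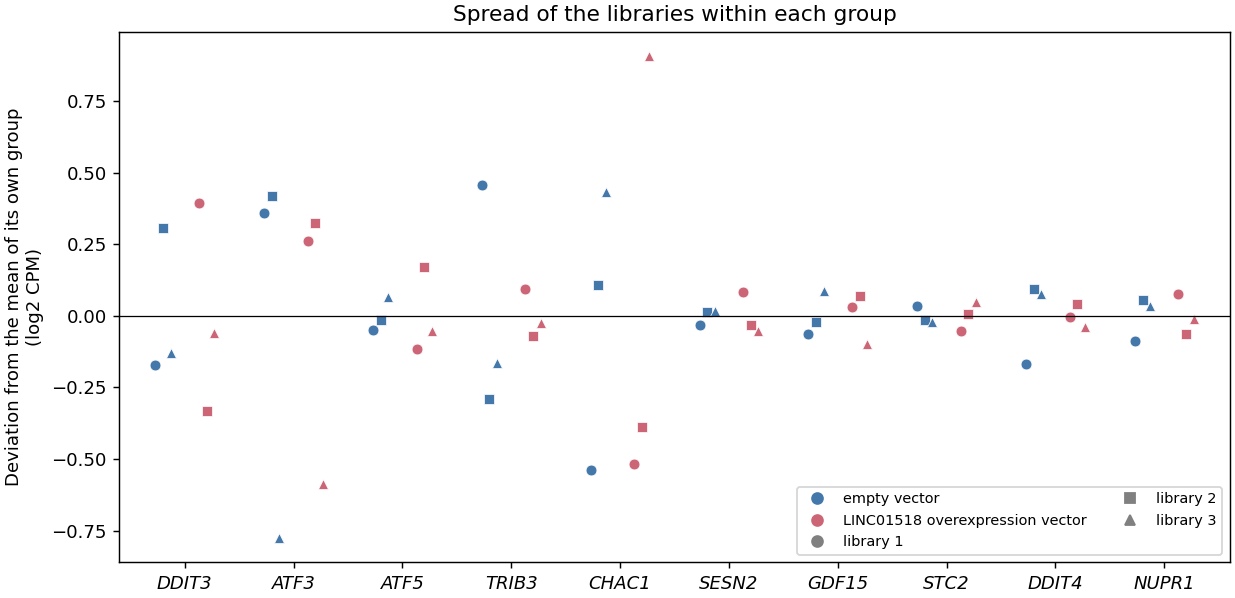
Deviation of each library from the mean of its own group (log2 CPM) for the 10 members, with a symbol for each library number. CHAC1, ATF3, DDIT3 and TRIB3 scatter widely, and the library numbered 3 is lowest for ATF3 and highest for CHAC1 in both groups.

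Upstream of the effectors, ATF4 mRNA was not lower in the counts. It had 398, 398 and 423 CPM with empty vector and 447, 417 and 436 CPM with overexpression, a log2 fold change of 0.09 (95% interval -0.02 to 0.20, edgeR adjusted p = 0.285). On the deposited TPM its sign was turned (-0.17, limma adjusted p = 0.363), so no direction is given for it. Relative to ATF4 in the same library, GDF15 counts stood at a CPM ratio of 0.256 to 0.268 with empty vector and 0.139 to 0.163 with overexpression, and DDIT3 at 0.105 to 0.152 and 0.0414 to 0.0639. These ratios rest on counts alone and were not taken on TPM. There ATF4 stood at 568, 553 and 573 with empty vector and at 474, 456 and 589 with overexpression. Of the 4 kinases of eIF2, EIF2AK1 (the haem-regulated kinase, 0.16, adjusted p = 0.066), EIF2AK2 (PKR, -0.10, 0.465), EIF2AK3 (PERK, -0.12, 0.283) and EIF2AK4 (GCN2, 0.04, 0.712, and -0.01 on TPM) none was called by edgeR. In the whole list of 19 genes of eIF2, its kinases and its control, 1 fell and 0 rose by edgeR, with 3 lower and 1 higher at an unadjusted p under 0.05. Among all tested genes edgeR called 2.03% lower and 3.57% higher. At the unadjusted cutoff, 11.4% of all tested genes were lower and 23.6% passed in either direction. DESeq2 called 2 of the list lower, DNAJC3 and EIF2S2, and 1 higher, EIF2AK1, beside 4.35% and 6.41% of all genes. The gene that fell by edgeR was DNAJC3 (89.3 ± 5.34 to 69.2 ± 0.862 CPM, SD, n = 3 each, edgeR adjusted p = 0.0144), which encodes a chaperone of the endoplasmic reticulum known as an inhibitor of PERK and PKR. EIF2S2, a subunit of eIF2, had a log2 fold change of -0.19 and DELE1, which carries the mitochondrial stress signal, of 0.15, neither called by edgeR. Of ATF4 and its C/EBP partners, 5 in all, 1 fell: CEBPG, which pairs with ATF4, went from 70.8 ± 4.01 to 54.5 ± 3.48 CPM (SD, n = 3 each, edgeR adjusted p = 0.0249). CEBPB, at -0.19, and CEBPA, at 0.19, were not called. The calls of DNAJC3 and CEBPG were kept in 3 and 1 of 6 fits without 1 library, with adjusted p of up to 0.0595 and 0.0747.

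Of the wider set of ATF4 targets, listed from general knowledge but with earlier results of these data known, 35 were tested. Their numbers beside the shares of all tested genes are therefore descriptive only. By edgeR 14 fell, 0 rose and 21 were not called, against 2.03% of all tested genes called lower. With the replicate block 5 fell, beside 0.576% of all tested genes. Of the 35, 32 had a negative log2 fold change, as had 6879 of all 13543 tested genes. Their median was -0.23, beside -0.0035 for all tested genes. For 22 of the 35 the groups did not overlap, each with overexpression lower, beside 15.5% of all tested genes in that direction and 31.4% in either. Largest among the called was ASNS, asparagine synthetase, at 110, 106 and 112 CPM with empty vector and 71.5, 57.7 and 71.2 CPM in the overexpression libraries (-0.71 on the log2 scale, SE 0.085, edgeR adjusted p = 0.00656). ALDH1L2, of mitochondrial folate metabolism (-0.64), and PSAT1, of serine synthesis (-0.45), fell likewise, with MTHFD2 (-0.24) and PCK2, mitochondrial phosphoenolpyruvate carboxykinase (-0.32). SLC3A2, the heavy chain of several amino acid transporters, fell (-0.27), as did 8 tRNA synthetase genes, AARS1, GARS1, WARS1, CARS1, EPRS1, SARS1, NARS1 and IARS1, by smaller steps of -0.18 to -0.30. SLC7A5, the light chain that pairs with SLC3A2, was not called (edgeR adjusted p = 0.215). It stood at 1422 and 1444 CPM in libraries 1 and 2 of the controls, at 622 CPM in library 3 and at 608 to 624 CPM with overexpression. Without empty vector replicate 3 it was called at -1.22 (adjusted p = 1.06e-04). It was not called without any of the other libraries (edgeR adjusted p = 0.384 to 0.415) or with the replicate block (0.305). HERPUD1 (-0.60) and SLC7A11 (-0.38) were not called. ASNS, ALDH1L2 and PSAT1 kept their call in 6 of 6 fits without 1 library. AARS1 and EPRS1 kept it in 2, MTHFD2, PCK2, SLC3A2, WARS1 and NARS1 in 1, and GARS1, CARS1, SARS1 and IARS1 in 0 of the 6. The count of 14 was 3 to 7 in those fits, with 7 without empty vector replicate 1 or 3, 4 without empty vector replicate 2, 5 without overexpression replicate 1 and 3 without overexpression replicate 2 or 3. Limma on TPM with a pseudocount of 1 called 9 of the targets lower, beside 0.879% of all tested genes. In promoter windows the element TGATGNAA was held by 8 of the 30 targets with an entry (AARS1, ASNS, FGF21, GARS1, HERPUD1, IARS1, JDP2 and SLC1A5). That is 26.7%, beside 3.89% of all genes with a window, and 18.6% against 3.14% when counted per window. The element was held by 4 of the 13 called targets and 4 of the 17 others. These others include FGF21, which had too few counts to be tested.

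**Figure D4:**
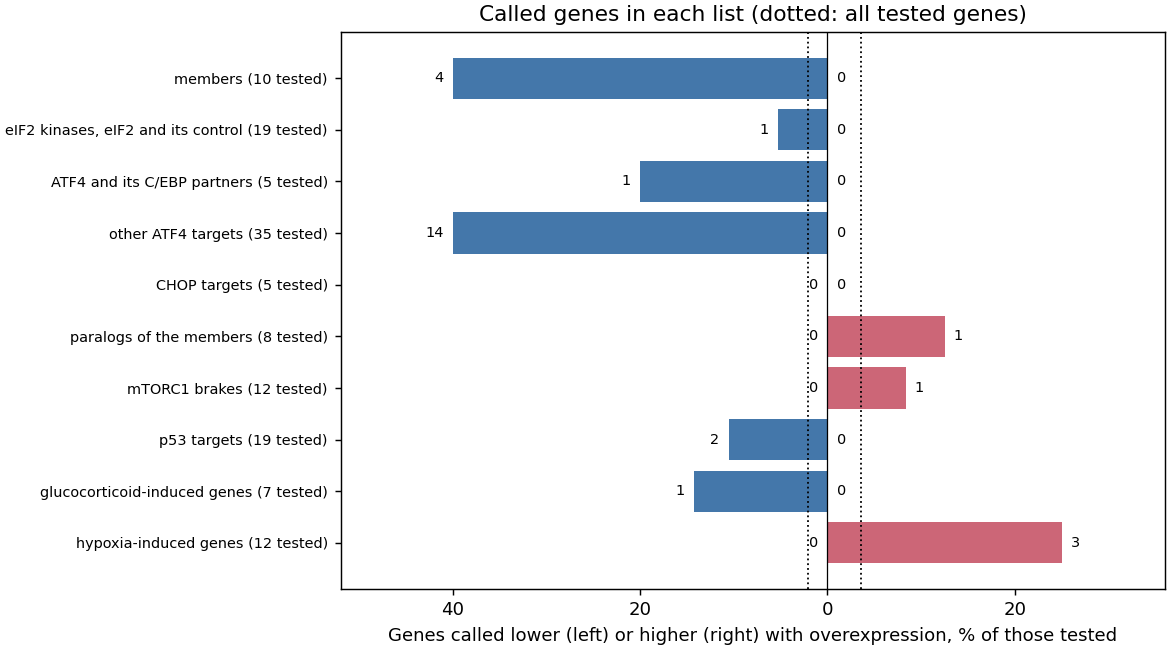
Percentage of the tested genes of each list called lower (left, blue) or higher (right, red) with overexpression, with the number of genes beside each bar and dotted lines at 2.03% lower and 3.57% higher for all tested genes. The members (4 of 10) and the other ATF4 targets (14 of 35) have the longest bars to the left.

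Lists of genes that act after the members or beside them were short, and their differences from the members were not tested. Beside them, 2.03% of all tested genes were called lower and 3.57% higher by edgeR. At an unadjusted edgeR p under 0.05, 11.4% of all tested genes were lower, 23.6% in either direction. Of 5 targets of CHOP, 0 were called by edgeR and 1, the death receptor gene TNFRSF10B at -0.11, had an unadjusted p under 0.05. DESeq2 and limma-voom called 0 of them too. BBC3, the gene of the death protein PUMA, had 13.6 to 16.3 CPM with empty vector and 4.79, 6.56 and 14.8 CPM with overexpression (edgeR adjusted p = 0.36), and BCL2L11, another death gene, had a log2 fold change of 0.26. Of 8 tested paralogs of the members, 1 rose and 0 fell. It was SESN3, a sestrin that is known as a FOXO target, at 18.3, 15.7 and 16.0 CPM with empty vector and 22.7, 22.6 and 22.5 CPM in the overexpression libraries (0.44 on the log2 scale, SE 0.081, edgeR adjusted p = 0.0266), opposite to SESN2. SESN1, a p53 target, had a log2 fold change of -0.12 without a call, and STC1, the paralog of STC2, of -0.12. The call of SESN3 was kept only without empty vector replicate 1 among the 6 fits (adjusted p of 0.0627 to 0.0877 in the other 5). TRIB1 (-0.20) and TRIB2 (-0.48), paralogs of TRIB3, were not called, and the paralogs DDIT4L and NUPR2 had 0 counts in all 6 libraries. Of 12 tested mTORC1 brakes apart from SESN2 and DDIT4, SESN3 was called and the other 11 were not. Among these were CASTOR2 (0.13) and the arginine sensor CASTOR1 (0.19, with the sign turned without empty vector replicate 1 or 3 or overexpression replicate 2).

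Several members answer to other inducers as well, and lists of these were read beside them. The lists are short, and among all tested genes 2.03% were called lower and 3.57% higher by edgeR. Of 19 p53 targets, which share the inducer of SESN2 and GDF15, 2 fell and 0 rose, the kinase gene PLK3 (21.7 ± 1.13 to 15.4 ± 0.488 CPM, SD, n = 3 each) and the RNA-binding protein gene ZMAT3 (50.4 ± 4.57 to 39.7 ± 1.52 CPM). The hallmark targets CDKN1A and MDM2 were scattered, CDKN1A at 59.5, 164 and 66.6 CPM with empty vector and 133 to 139 CPM with overexpression, and neither was called. MDM2 had a log2 fold change of -0.54 on counts and 0.20 on TPM, so it is given no direction. Of 7 glucocorticoid-induced genes, which share an inducer with DDIT4, 1 fell, the Kruppel-like factor gene KLF9 (77.2 ± 2.25 to 62.4 ± 2.75 CPM, SD, n = 3 each), and TSC22D3 (0.18), FKBP5 (-0.46) and ERRFI1 (0.11) were not called. Of 12 hypoxia-induced genes, 3 rose and 0 fell: CA9, BNIP3 and NDRG1, at 0.54, 0.36 and 0.34. VEGFA, which ATF4 and hypoxia both induce, had 110 to 123 CPM with empty vector and 58.1, 115 and 73.0 CPM with overexpression and was not called, nor were EGLN3 (0.39) and KDM3A (0.27). Medians of the 3 lists were -0.11, -0.03 and 0.15. Without 1 library, ZMAT3 and NDRG1 lost their call in 6 of 6 fits, KLF9 in 4, CA9 in 3 and PLK3 in 2, while BNIP3 was called in all 6.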

How the data were processed

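RNA-seq of 6 libraries, 3 per group, was analysed, with groups taken from the sample labels. The authors deposited raw counts per gene and, in a second table, TPM for the same 20263 genes. Per the submitters' processing notes, Trimmomatic 0.36, HISAT2, featureCounts of Subread 1.5.1, DESeq and the build GRCh38 were used. Which tool made the TPM, which annotation release was used and whether counting used strand are not stated in these sources. Symbols were matched for 20148 genes. Genes passing edgeR's filter (minimum count 10, minimum total 15) were scaled by TMM and tested with edgeR 4.0.16 (quasi-likelihood, robust) in R 4.3.3, with Benjamini-Hochberg adjustment over all genes tested. Levels are mean ± SD over 3 libraries. A count of 3 corresponds to 0.0703 to 0.0794 CPM, and such floors cover counting error only. Alternatives were DESeq2 1.42.0, limma 3.58.1 (voom on counts, and on log2 TPM with a pseudocount of 1 or 0.1), other scalings and filters, a replicate block and leaving out each library. Scripts were tested on simulated data. The members and gene lists were chosen with earlier results of these data known. Named are all members, ATF4 and the eIF2 kinases, the called genes of each list and up to 3 others of each list with the largest change, and the 3 genes closest in profile to the member with the largest change. Loci are from GENCODE 29, and promoter windows from RefSeq on GRCh38.p14.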

Additional observations from a re-analysis of the deposited data

How the results depend on the processing

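SESN2, GDF15 and STC2 were called in all 16 alternative fits, and 0 members were called higher in any. DDIT3 kept its direction but was not called with no count filter (-1.15, adjusted p = 0.0677), on TPM with a pseudocount of 0.1 (-1.22, 0.0511) or with the replicate block (-1.165, 0.148), and ranged from -1.38 to -0.98 without 1 library. TRIB3 was called by DESeq2 (-0.73), in 1 of 6 fits without 1 library and in no other alternative fit, and ranged from -0.87 to -0.47 without 1 library. ATF3 ranged from -0.15 to 0.39 without 1 library, negative without empty vector replicate 3 (-0.15) or overexpression replicate 2 (-0.01). Members called lower were 3 to 4 without 1 library. The other ATF4 targets called lower, 14, became 9 on TPM with either pseudocount, 5 with the replicate block and 3 to 7 without 1 library. Over the 6 pathway lists, 16 lower became 10 on TPM with either pseudocount, 7 with the block and 3 to 8 without 1 library, and 1 higher became 2 with DESeq2, 0 on TPM and with the block, and 0 to 1 without 1 library. Over the 3 lists of other inducers, 3 lower became 1 on TPM, 0 with the block and 0 to 2 without 1 library, and 3 higher became 1 on TPM and 1 to 3 without 1 library. Over all genes, 275 lower became 532 with DESeq2, 119 and 122 on TPM with a pseudocount of 1 and 0.1, 78 with the block and 62 to 171 without 1 library. The 484 higher became 784, 100, 103, 154 and 131 to 287 likewise. ATF4 (-0.17 and -0.17), EIF2AK4 (-0.014 and -0.015) and MDM2 (0.20 and 0.22) turned sign on TPM, and CASTOR1 without empty vector replicate 1 (-0.15) or 3 (-0.08) or overexpression replicate 2 (-0.32), over a range of -0.32 to 1.14. Fits without 1 library have fewer samples, and for the rest the cause was not tested. The replicate numbers were not taken to pair the libraries: deviations of same-numbered libraries correlated at 0.037, 0.055 and 0.045 across genes, although each library correlated best with its own number. CHAC1 and ATF5 had the fewest counts of the members, 108 to 309 and 151 to 224 per library.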
